A study of Homo sapiens with 6 samples.

Results

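The genes described here are the box H/ACA small nucleolar RNAs, whose symbols start with SNORA, and the small Cajal body RNAs, whose symbols start with SCARNA. They were chosen by these symbol prefixes among array probesets that carry 1 single gene symbol, and the rule itself uses no measured change. 77 of 18404 measured genes met the rule, 61 SNORA and 16 SCARNA. A further 27 probesets that list such a gene together with others were left out. The cells were PC-3, an androgen-independent line from a human prostate carcinoma, and the question was how menthol changes their expression profile. The vehicle group held 3 arrays of cells given ethanol alone and the menthol group 3 arrays of cells given menthol dissolved in ethanol. Ethanol at 0.1% and DMEM with 10% serum were common to both groups, and the sources used here give no menthol dose or exposure time. PC-3 is 1 line. Whether the replicates were grown as separate cultures is not stated, so each p-value reflects the spread between these arrays alone, and that spread may be technical.

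An H/ACA RNA folds into hairpins, each with an internal loop that pairs with a target RNA, and carries the short boxes H and ACA for which the class is named. In a particle with dyskerin (DKC1), NOP10, NHP2 and GAR1 it directs the change of a chosen uridine to pseudouridine, in ribosomal RNA for most SNORA members. Small Cajal body RNAs stay in the Cajal body, a nuclear body built on coilin, and guide modifications of the spliceosomal small nuclear RNAs. The SCARNA symbol marks that location and not one structure: SCARNA7, SCARNA9 and SCARNA17 are of the C/D type, which guides methylation, and SCARNA5, SCARNA6, SCARNA10 and SCARNA12 hold both kinds of domain. Most human members are cut out of introns of other genes, so that a member is transcribed from the promoter of its host gene.

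In the RefSeq gene table of GRCh38.p14, all 77 members lay within the span of at least 1 longer gene, and 9 genes held more than 1 member. The table gives no strand for the members, so a holding gene is called a host here by position alone. The sequences of the members themselves were not used here. The promoters of 6 hosts are shown, chosen because the results below turn on them. ATG16L1, TCP1, TBRG4 and RPSA each hold more than 1 member, and members that share a host share its promoter. EP400 and IPO7 each hold 1 member. Other hosts of more than 1 member, such as KHDC4, KANSL2 and RPL27A, are not shown. Each line runs from 60 bases before the annotated start to 15 bases from it on, from RefSeq on GRCh38.p14, and capitals mark a pyrimidine run that reaches the start.
ATG16L1 (chr2:233251613-233251687, plus strand): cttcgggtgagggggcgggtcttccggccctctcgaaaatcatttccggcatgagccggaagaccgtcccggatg
TCP1 (chr6:159789588-159789662, minus strand): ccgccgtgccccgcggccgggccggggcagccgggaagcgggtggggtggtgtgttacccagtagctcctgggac
TBRG4 (chr7:45111683-45111757, minus strand): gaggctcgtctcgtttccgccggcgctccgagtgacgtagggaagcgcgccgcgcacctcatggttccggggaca
RPSA (chr3:39406660-39406734, plus strand): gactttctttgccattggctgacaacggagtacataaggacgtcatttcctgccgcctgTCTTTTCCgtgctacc
EP400 (chr12:131949882-131949956, plus strand): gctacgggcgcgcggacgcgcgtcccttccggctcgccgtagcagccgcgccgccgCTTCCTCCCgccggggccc
IPO7 (chr11:9384592-9384666, plus strand): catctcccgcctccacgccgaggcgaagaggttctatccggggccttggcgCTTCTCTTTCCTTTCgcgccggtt
The run searched was an unbroken stretch of at least 8 C or T letters within 10 bases of the start, read on the gene's own strand only. Such a run stands at the start of many genes of the translation machinery. It was present in 4099 of 27305 promoters of the table (15%), in 20 of 65 host promoters (30.8%) and in 6 of 7 promoters of ribosomal protein hosts. ATG16L1, TCP1 and TBRG4, which hold 7 members between them, had none in this window, and RPSA, EP400 and IPO7 had one. These matches are descriptions of the letters only.

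The values are log2 of the deposited intensity, and changes are menthol minus vehicle on that scale with the moderated standard error (SE) of limma. A gene passed the test at a Benjamini-Hochberg adjusted p under 0.05 over all 18404 genes. Replicates of the members spread more than those of other genes: the median SD was 0.15 among vehicle and 0.18 among menthol arrays, against 0.08 and 0.10 over all genes. Menthol replicate 1 lay farthest from its own group for the members. Its median absolute distance from the mean of its own group was 0.16, against 0.10 in each of the other menthol arrays and 0.07 to 0.10 in the vehicle arrays. It was the highest menthol array in 43 of 77 members and the lowest in 20. The vehicle arrays were uneven in a like way: vehicle replicate 1 was their highest in 40 members and vehicle replicate 2 their lowest in 42. The epithelial markers KRT8, KRT18, EPCAM, CDH1 and ITGA6 all lay in the brightest quartile of genes, and 4 of them rose and 1 fell. KLK2 and KLK3, prostate genes known to be low in PC-3, lay in the second quartile. Of 5 blood cell markers measured, 3 lay in the dimmest quartile and 0 passed the test, with 1 at an unadjusted p under 0.05 in limma. Of 6 fibroblast markers 2 rose (COL1A2 and DCN) and 1 fell (COL3A1). Their summed linear signal was 393 to 415 intensity units with vehicle and 342 to 370 with menthol. COL1A1, the brightest of them at a vehicle mean of 7.91 in log2, weighs most in that sum. It did not pass (limma adjusted p = 0.0763). The part of these markers in the results below was not tested. Without menthol replicate 1, 20 members passed, 16 of them among the 18 that passed with it. In bulk RNA, fewer cells of a type and less RNA per cell cannot be told apart.

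Menthol-treated cells had 8 members higher and 10 lower past the threshold, 18 of 77 or 23.4%, where 29.1% of all genes passed. By direction, 10.4% of the members rose against 14.6% of all genes, and 13.0% fell against 14.5%. The shares of members called did not exceed those of all genes. The median change was -0.02 over the members and 0.03 over all genes. The groups did not overlap in 26 members, 33.8% against 45.3% of all genes. In 12 members (background 23.5%) the menthol arrays were all higher, and in 14 (background 21.7%) all lower. Of the members that passed, 6 rose and 5 fell by at least 1.5-fold, which is 14.3% of the members against 5.61% of all genes. In the box C/D class (SNORD) that share was 22.6%, so a share above that of all genes was not particular to the members. The part of the larger replicate spread of the members in this share was not tested. Without vehicle replicate 2, 5 members rose in place of 8, and 6 fell in place of 10 when vehicle replicate 1 or vehicle replicate 3 was left out.

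**Figure D1:**
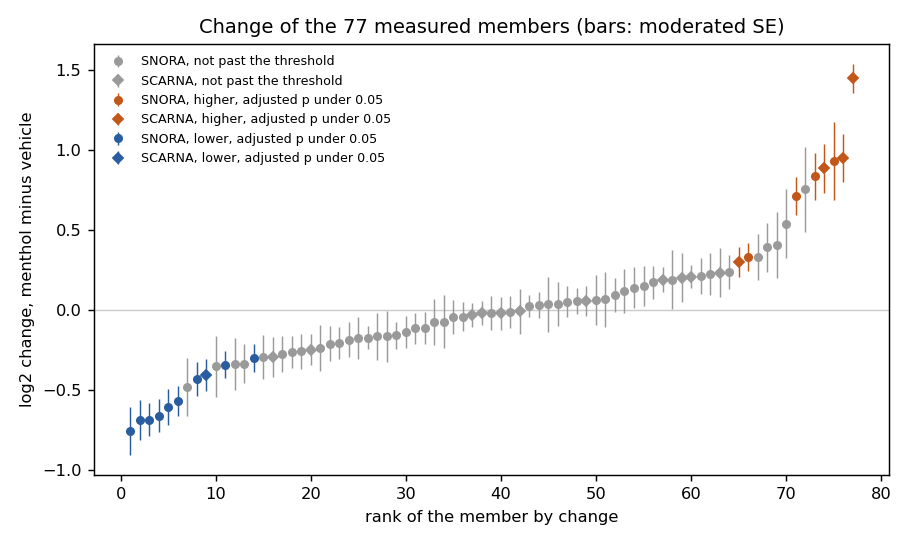
The log2 change (menthol minus vehicle) of each of the 77 members is plotted against its rank, with the moderated SE as bars; circles are SNORA, diamonds SCARNA, and colour marks the members past the threshold. The changes run from -0.76 (SNORA33) to 1.45 (SCARNA6), and SCARNA members hold the first, the second and the fourth place from the top.

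Among the small Cajal body RNAs 4 of 16 rose (25%) and 1 fell (6.25%), with a median change of 0.12. That median was 0.044 without menthol replicate 1, 0.19 without vehicle replicate 3, 0.079 without vehicle replicate 2 and 0.025 without dim genes. Among the SNORA members 4 of 61 rose (6.56%) and 9 fell (14.8%), with a median of -0.07. Only 2 SNORA rose without vehicle replicate 2, and the SCARNA that fell numbered 0 without vehicle replicate 1 or vehicle replicate 3 and 2 without menthol replicate 3. Whether these classes differ from each other or from other genes was not tested. The box C/D class (SNORD), measured the same way, had 4 higher (3.48%) and 40 lower (34.8%) of 115, with a median of -0.25. Over all genes 14.6% rose and 14.5% fell, the latter near the 14.8% of SNORA that fell. By brightness, 24 members lay in the dimmest quartile of genes, 30 in the second, 18 in the third and 5 in the brightest. In the second quartile 5 members rose and 9 fell, where 13.4% and 9% of all its genes did (22.4% in both directions). In the dimmest quartile 1 rose and 1 fell, against 10.3% and 1.91% of its genes (12.2%). In the third quartile 2 rose and 0 fell, against 17.5% and 20.2% (37.6%). In the brightest quartile 0 of 5 members passed, against 17.2% higher and 26.9% lower (44.1%).

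SCARNA6, a guide for U5 small nuclear RNA, had the largest change of all members. Its log2 signal was 6.70, 6.80 and 6.72 in the vehicle arrays and 8.38, 8.06 and 8.12 in the menthol arrays. All menthol arrays lay well above all vehicle arrays. It rose by 1.45 ± 0.09 (SE, n = 3 per group), or 2.73-fold (limma adjusted p = 7.2e-05). SCARNA5, also a guide for U5 RNA and located in the same host, was at 6.41, 5.80 and 6.10 with vehicle and 7.19, 6.91 and 7.05 with menthol. The vehicle arrays were more spread than the menthol arrays, and the groups did not overlap. It rose by 0.95 ± 0.15, or 1.93-fold (limma adjusted p = 0.0030).

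SCARNA1, which guides pseudouridylation of U2 small nuclear RNA, was at 3.62, 3.36 and 3.35 with vehicle and 4.68, 4.09 and 4.22 with menthol. Menthol replicate 1 was the highest, and every menthol array exceeded every vehicle array. It rose by 0.89 ± 0.15, or 1.85-fold (limma adjusted p = 0.0046), at a signal within the dimmest quartile, where 10.3% of all genes rose. SCARNA8, another guide for U2 RNA, was at 5.22, 5.07 and 5.21 with vehicle and 5.40, 5.37 and 5.65 with menthol. It rose by 0.30 ± 0.09 (limma adjusted p = 0.0415), the smallest change among the members that rose. This call was lost on leaving out any 1 array other than menthol replicate 2 (limma adjusted p = 0.0546 to 0.127), and under quantile, cyclic loess and equal-median normalization.

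SCARNA22, an H/ACA member within the histone methyltransferase gene NSD2, was the small Cajal body RNA that fell. It was at 6.39, 6.28 and 6.35 with vehicle and 6.07, 5.71 and 6.02 with menthol, with menthol replicate 2 lowest. The fall was 0.40 on the log2 scale, with an SE of 0.10 (limma adjusted p = 0.0198), and it did not pass without vehicle replicate 1 (0.0649) or vehicle replicate 3 (0.0576).

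The other 11 small Cajal body RNAs did not pass. SCARNA17, a C/D guide for U4 RNA, came nearest, at 10.58, 10.43 and 10.54 with vehicle and 10.65, 10.80 and 10.73 with menthol. Its groups did not overlap, and its change was 0.21 ± 0.07 (limma adjusted p = 0.0610). It passed under quantile and cyclic loess normalization, without dim genes, with the trended prior and with array weights (limma adjusted p down to 0.0044). A second SCARNA17 probeset gave 0.23. SCARNA7, a C/D guide for U1 RNA, was at 9.01, 8.94 and 9.25 with vehicle and 8.60, 8.70 and 9.01 with menthol. Its change was -0.29 ± 0.12 (limma adjusted p = 0.116) with overlapping groups. It passed without menthol replicate 3 (0.0335) and with the replicate block. SCARNA9, a C/D guide for U2 RNA, and SCARNA12 changed by -0.02 each, with overlapping groups. A second, dimmer SCARNA9 probeset gave 0.23, so its probesets disagreed. SCARNA9L, a copy of SCARNA9 on another chromosome, had a change of -0.25 in the probeset used and 0.02 in the other. SCARNA9L passed with the trended prior and with array weights (limma adjusted p down to 0.0383). SCARNA10, which guides both methylation and pseudouridylation of U5 RNA, changed by 0.06 ± 0.09. SCARNA4, SCARNA14 and SCARNA16 changed by 0.20, 0.23 and 0.19, and SCARNA11 and SCARNA23 by -0.01 and -0.03. SCARNA4 passed without menthol replicate 2 (limma adjusted p = 0.0394) and SCARNA16 without menthol replicate 3 (0.0341). SCARNA16 also passed with array weights. Of the 4 members with both kinds of domain 2 rose, and of the 8 of the H/ACA type 2 rose and 1 fell. Of the 4 of the C/D type 0 passed in the main limma fit, though SCARNA7, SCARNA9L and SCARNA17 did under the alternatives above. At an unadjusted p under 0.05 the C/D members SCARNA7, SCARNA9L and SCARNA17 would count, and the last 2 of these had groups that did not overlap.

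**Figure D2:**
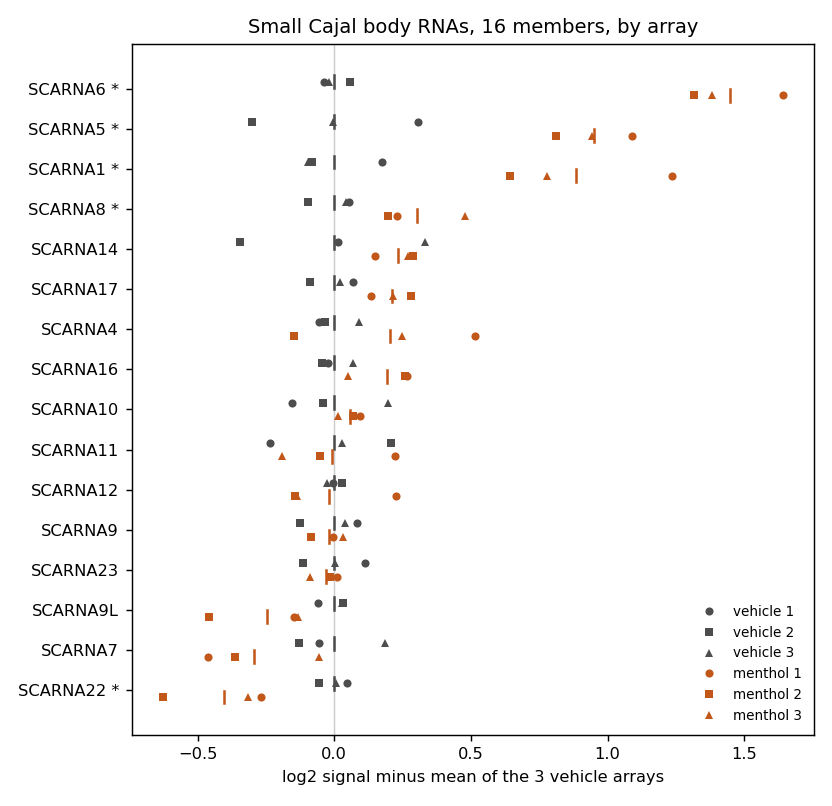
Each row is 1 small Cajal body RNA and each point 1 array, as log2 signal minus the mean of the 3 vehicle arrays; vertical ticks are group means and an asterisk marks an adjusted p under 0.05. SCARNA6, SCARNA5 and SCARNA1 have all menthol arrays at least 0.6 above the vehicle mean, while most other rows overlap.

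Of the SNORA members, 4 rose: SNORA20, SNORA49, SNORA23 and SNORA5B. SNORA20 was at 5.06, 4.63 and 4.63 with vehicle and 6.25, 5.22 and 5.64 with menthol. The groups did not overlap, and menthol replicate 1 was far above menthol replicate 2. It rose by 0.93 ± 0.24, or 1.91-fold (limma adjusted p = 0.0246), a call lost without vehicle replicate 2 (0.0704), vehicle replicate 3 (0.0767) or menthol replicate 3 (0.0588).

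SNORA49, held by the chromatin remodelling gene EP400, was at 5.12, 5.03 and 5.01 with vehicle and 6.27, 5.72 and 5.69 with menthol. The vehicle arrays were close together and all menthol arrays lay above them. It rose by 0.84 ± 0.15, or 1.78-fold (limma adjusted p = 0.0049). SNORA23, held by the nuclear import receptor gene IPO7, was at 5.47, 5.30 and 5.47 with vehicle and 6.38, 5.95 and 6.04 with menthol. It rose by 0.71 ± 0.12, or 1.64-fold (limma adjusted p = 0.0037), with menthol replicate 1 again highest. SNORA5B was at 4.81, 4.74 and 4.99 with vehicle and 5.19, 5.27 and 5.07 with menthol. Its rise of 0.33 ± 0.09 (limma adjusted p = 0.0257) was lost on leaving out vehicle 1, vehicle 2, menthol 1 or menthol 2 (0.0623 to 0.0859), under cyclic loess normalization and with the replicate block.

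The largest fall was that of SNORA33, held by the ribosomal protein gene RPS12. It was at 5.11, 4.76 and 5.12 with vehicle and 3.98, 4.22 and 4.52 with menthol, without overlap. It fell by 0.76 on the log2 scale (SE 0.15, limma adjusted p = 0.0081), and 1.91% of the genes of its dimmest quartile fell. SNORA29 was at 5.74, 5.29 and 5.60 with vehicle and 4.70, 4.96 and 4.92 with menthol. The menthol arrays all lay below the lowest vehicle array. It fell by 0.68 (SE 0.13, limma adjusted p = 0.0056).

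SNORA62, held by the ribosomal protein gene RPSA, was at 6.81, 6.45 and 6.55 with vehicle and 6.05, 5.91 and 5.88 with menthol. It fell by 0.66 (SE 0.10, limma adjusted p = 0.0028). SNORA6, which shares the host RPSA with SNORA62, was at 6.27, 6.19 and 6.31 with vehicle and 5.49, 5.76 and 5.82 with menthol. Both sets of groups were apart, and the array order within the menthol group differed between them. SNORA6 fell by 0.57 (SE 0.09, limma adjusted p = 0.0038).

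SNORA38, held by PRRC2A, was at 6.30, 6.08 and 6.12 with vehicle and 5.38, 5.68 and 5.39 with menthol. It fell by 0.68 (SE 0.10, limma adjusted p = 0.0023). SNORA55, held by the poly(A)-binding protein gene PABPC4, was at 6.43, 6.45 and 6.29 with vehicle and 6.03, 5.61 and 5.72 with menthol. It fell by 0.61 (SE 0.11, limma adjusted p = 0.0059), and in both cases every menthol array was below every vehicle array.

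The remaining falls were smaller. SNORA13 was at 5.40, 5.13 and 5.26 with vehicle and 4.63, 4.91 and 4.96 with menthol, and fell by 0.43 (limma adjusted p = 0.0206). SNORA5A was at 6.17, 5.94 and 6.12 with vehicle and 5.83, 5.64 and 5.73 with menthol, and fell by 0.34 (limma adjusted p = 0.0193). SNORA24, held by the small nucleolar RNA host gene SNHG8, was at 6.57, 6.43 and 6.43 with vehicle and 6.33, 6.05 and 6.14 with menthol, and fell by 0.30 (limma adjusted p = 0.0382). None of these had overlapping groups. The calls on SNORA13 and SNORA5A were lost without vehicle replicate 1 (0.0698 and 0.0697) or 3 (0.0570 and 0.0643), and that on SNORA5A also without menthol replicate 2 (0.0651). The call on SNORA24 was lost on leaving out any 1 array other than menthol replicate 1 (0.0709 to 0.121).

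**Figure D3:**
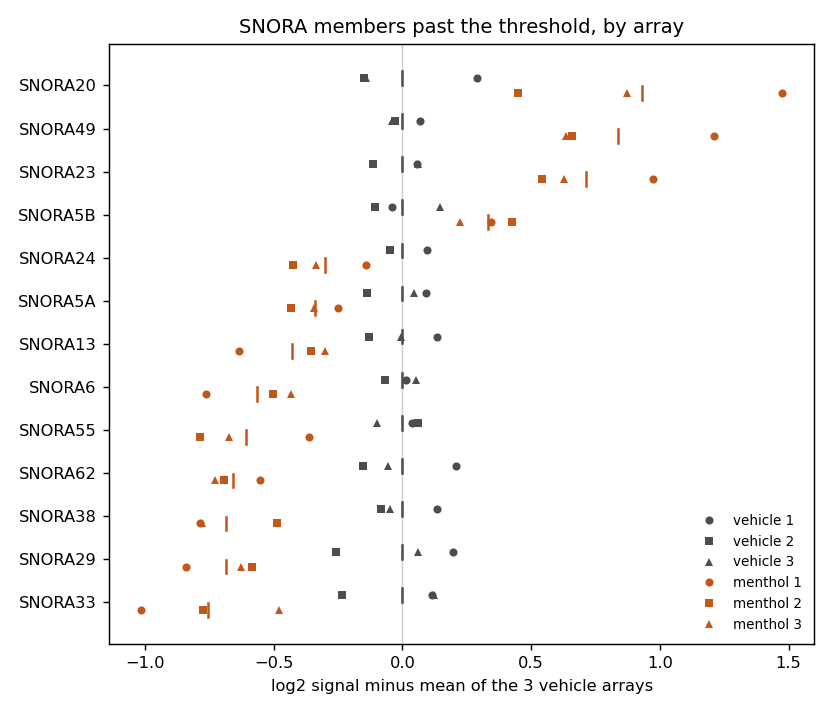
Each row is 1 of the 13 SNORA members past the threshold and each point 1 array, as log2 signal minus the mean of the 3 vehicle arrays, with group means as ticks. Menthol replicate 1 (orange circle) is farthest from the vehicle arrays in SNORA20, SNORA49 and SNORA23 and also in SNORA33, SNORA29, SNORA38, SNORA6 and SNORA13.

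The other 48 SNORA members did not pass, with changes from -0.48 (SNORA46) to 0.75 (SNORA22). SNORA46 passed without menthol replicate 2, at -0.70 (limma adjusted p = 0.0074). The 4 with the highest mean signal were SNORA71C, SNORA68, SNORA71A and SNORA57, with changes of -0.17, 0.54, -0.16 and 0.21. Without menthol replicate 1, SNORA71A was at -0.36 and SNORA71C at -0.32, and both passed (limma adjusted p = 0.0093 and 0.0380). SNORA68 was at 7.71, 7.85 and 7.87 with vehicle and 8.91, 8.18 and 7.97 with menthol. Its groups did not overlap, but menthol replicate 1 held most of the change, which was 0.54 ± 0.22 (limma adjusted p = 0.0997) and 0.26 without that array. The call turned on 1 array: it passed without menthol replicate 3 (0.0422). SNORA22, chosen after its values were seen, was at 6.64, 7.01 and 7.04 with vehicle and 8.32, 7.34 and 7.29 with menthol. Its change was 0.75 ± 0.27 (limma adjusted p = 0.0686) and 0.42 without menthol replicate 1.

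Several members are copies of one another, and near-identical copies can share array signal, so their separate values are uncertain. The 6 SNORA70 copies measured here changed by -0.20 to 0.39, the 3 SNORA71 copies by -0.17 to 0.07 and the 3 SNORA80 copies by -0.04 to 0.17. In the main fit they had 0 calls. Of the SNORA38 pair, SNORA38 fell and SNORA38B, held by another gene, changed by -0.18. The 3 SNORA5 copies moved in different directions and are described with their host below. The SNORA14, SNORA2 and SNORA3 pairs had 0 calls in the main fit. In limma, 2 of these 18 copies, SNORA70F and SNORA2A, had an unadjusted p under 0.05. SNORA2A and SNORA70C passed without vehicle replicate 2 (limma adjusted p = 0.0197 and 0.0377) and SNORA70F without menthol replicate 3 (0.0173). With all 6 arrays, SNORA2A also passed under cyclic loess normalization and SNORA70F with array weights. SNORA15 had a probeset with a change of -0.01, which was used, and a dimmer one at -1.02, so its probesets disagreed.

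Members held by the same gene did not always move together. TCP1, which encodes a subunit of the cytosolic chaperonin, held SNORA20, which rose, and SNORA29, which fell. TCP1 itself was at 12.65, 12.60 and 12.64 with vehicle and 12.59, 12.64 and 12.68 with menthol. It changed by 0.01 ± 0.06 (limma adjusted p = 0.948), with overlapping groups. The change of SNORA20 minus that of SNORA29 was 1.62 ± 0.39 (SE), and the difference was larger in every menthol array than in any vehicle array. In 3 against 3 arrays the exact two-sided permutation test cannot go below 0.10, and this difference was at that limit (exact permutation p = 0.10). This outcome was fixed beforehand, because SNORA20 rose and SNORA29 fell, each without overlap. It adds nothing to their separate values. Such pairs, of 2 members or of a member and its host, numbered 78. The groups did not overlap in 27 of 65 pairs of a member and its host and in 7 of 13 pairs of 2 members. After Benjamini-Hochberg adjustment over all 78 pairs, every p at that limit became 0.229.

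TBRG4, a gene of mitochondrial RNA handling, held SNORA5A, SNORA5B and SNORA5C. TBRG4 was at 8.34, 8.39 and 8.54 with vehicle and 7.97, 7.86 and 7.96 with menthol, without overlap. It fell by 0.49 (SE 0.07, limma adjusted p = 0.0025). SNORA5A fell, SNORA5B rose and SNORA5C changed by -0.11 ± 0.09 (limma adjusted p = 0.410). The change of SNORA5A minus SNORA5B was -0.67 ± 0.12, with no overlap between groups (exact permutation p = 0.10, the smallest possible). That separation too was fixed beforehand, because SNORA5A fell and SNORA5B rose, each without overlap. As copies, the SNORA5 members may share signal.

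ATG16L1, which encodes a protein needed for autophagosome formation, held SCARNA5 and SCARNA6. It was at 8.80, 8.73 and 8.74 with vehicle and 8.71, 8.82 and 8.85 with menthol, with overlapping groups. Its change was 0.04 ± 0.06 (limma adjusted p = 0.671), while both members rose. Relative to ATG16L1, SCARNA6 gained 1.41 ± 0.15 and SCARNA5 gained 0.91 ± 0.19, each without overlap (exact permutation p = 0.10 for each, the smallest possible). These outcomes were fixed beforehand, because each member alone separated the groups by more than the whole range of ATG16L1. They add nothing to the separate values. SCARNA6 also gained more than SCARNA5, by 0.50 ± 0.21, again without overlap (exact permutation p = 0.10).

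The 2 members in RPSA, a ribosomal protein gene, both fell, and the change of SNORA6 minus that of SNORA62 was 0.09 ± 0.18, with overlapping groups (exact permutation p = 0.60). RPSA was among 23 of 78 hosts not measured by a probeset of 1 gene symbol. KHDC4 held SCARNA4 and SNORA80E, at 0.20 and 0.17, neither past the threshold, while KHDC4 itself fell by 0.34 (limma adjusted p = 0.0304). The KHDC4 call was lost with the replicate block and on leaving out vehicle 1, vehicle 3, menthol 1 or menthol 2 (up to 0.0981).

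**Figure D4:**
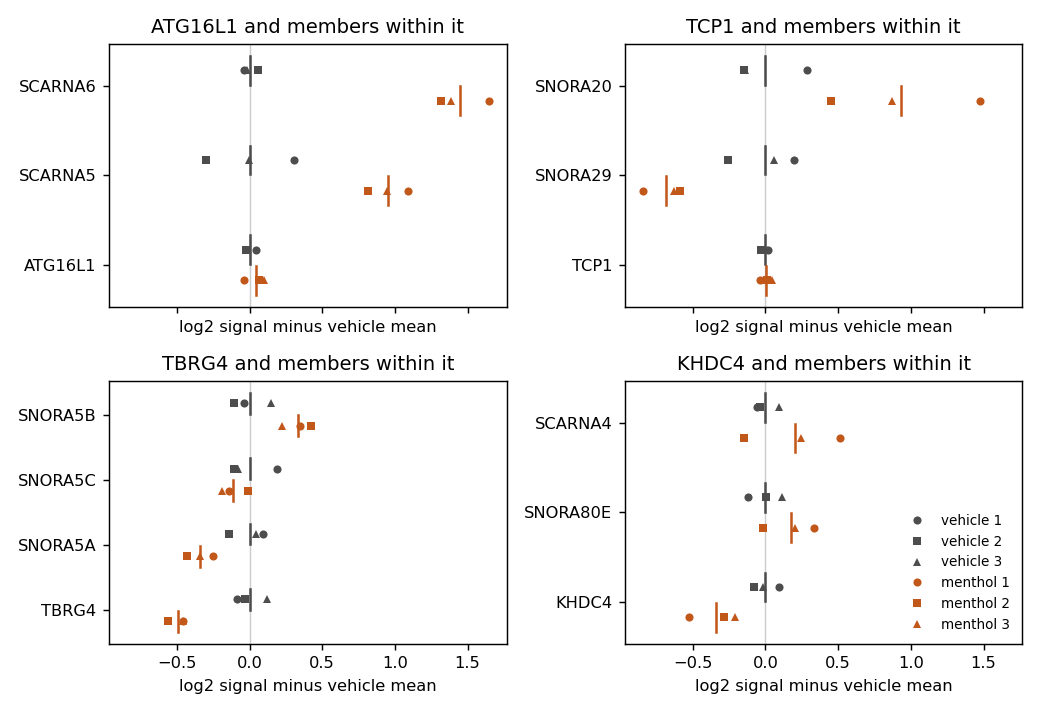
For 4 hosts the panels show the host (bottom row) and the members it holds, each point 1 array as log2 signal minus the vehicle mean, with group means as ticks. ATG16L1 and TCP1 stay near 0 while their members shift, in opposite directions for TCP1.

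Across the hosts, 22 of 55 measured genes fell and 3 rose, or 40% and 5.45%, with 14.5% and 14.6% of all genes as background. Under cyclic loess normalization 6 rose and 20 fell, under quantile normalization 6 rose and 19 fell, and 1 rose without vehicle replicate 2. Of these 55 genes 38 lay in the brightest quartile, where 26.9% of genes fell. Of 26 members whose single measured host fell, 4 fell, 3 rose and 19 did not pass. Over all genes 14.5% fell and 14.6% rose, so these member counts were near the background. The members that fell with their host were SNORA38 with PRRC2A, SNORA55 with PABPC4, SCARNA22 with NSD2 and SNORA5A with TBRG4. PRRC2A was at 10.55, 10.43 and 10.42 with vehicle and 9.64, 9.52 and 9.66 with menthol, and fell by 0.86 (limma adjusted p = 0.00018). PABPC4 fell by 0.42 (limma adjusted p = 0.0023) and NSD2 by 0.37 (limma adjusted p = 0.0037). In each of the 4 pairs the change of the member minus that of the host overlapped between groups, with sizes of -0.18 to 0.18.

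The members that rose while the host fell were SNORA49, SCARNA8 and SNORA5B. EP400 was at 7.49, 7.47 and 7.42 with vehicle and 7.17, 7.16 and 7.34 with menthol, and fell by 0.24 (limma adjusted p = 0.0403). That EP400 call was lost on leaving out any 1 array other than menthol replicate 3, under quantile normalization and with the replicate block (up to 0.120). HAUS6, a gene of spindle microtubule assembly and host of SCARNA8, fell by 0.48 (limma adjusted p = 0.0247), a call lost on leaving out vehicle 1, vehicle 3, menthol 1 or menthol 2 (up to 0.0802). IPO7, the host of SNORA23, changed by -0.24 ± 0.08 and did not pass (limma adjusted p = 0.0608), but passed without menthol replicate 3 (0.0163). SNORA49 gained 1.07 ± 0.22 over EP400, SNORA23 gained 0.96 ± 0.16 over IPO7 and SCARNA8 gained 0.78 ± 0.11 over HAUS6. Each of these separated the groups (exact permutation p = 0.10, the smallest possible). That separation was fixed beforehand, because member and host were each without overlap, in opposite directions. It adds nothing to their separate values.

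SNORA13 lay within both EPB41L4A, at 0.09 ± 0.11, and the long non-coding RNA gene EPB41L4A-AS1, at -0.07 ± 0.06, neither past the threshold. Over the 63 members with a single measured host, Pearson's r between member change and host change was 0.16. This is a description across members that share arrays and, in part, hosts. A probeset within an intron can also detect the unspliced host transcript, and the deposited values do not tell these apart.

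**Figure D5:**
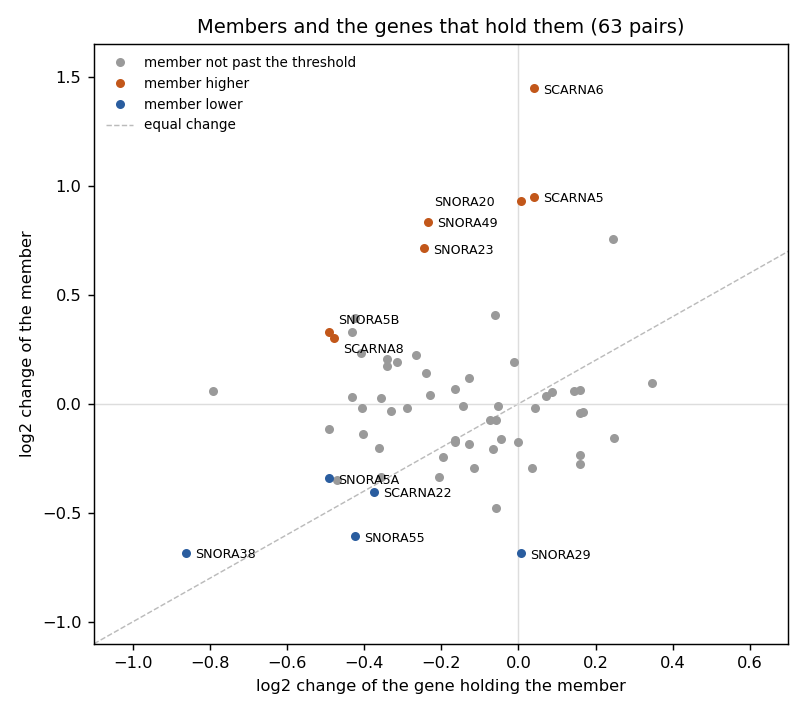
Each point is 1 of 63 members with a single measured host: log2 change of the host on the horizontal axis, of the member on the vertical axis, with the dashed line marking equal change and colour the member's call. SNORA38, SNORA55, SCARNA22 and SNORA5A lie near the line, and the 7 members coloured as higher lie above it.

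By kind of host, 13 members lay in ribosomal protein genes or pseudogenes, and 3 of them fell and 0 rose, with a median change of -0.21. The 8 members in other genes named as small nucleolar RNA hosts (SNHG) had 1 lower and 0 higher, with a median of -0.06. The 56 members in all other hosts had 8 higher and 6 lower, with a median of -0.01. All 8 members that rose were therefore in hosts outside these classes. Those 8 of 56 were near the 14.6% of all genes that rose, and 14.5% of all genes fell. Whether the classes differ was not tested.

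Of the 4 core genes of the H/ACA particle, NHP2 fell and the others did not pass, 25% called against 29.1% of all genes. NHP2 was at 9.12, 9.21 and 9.31 with vehicle and 8.98, 8.86 and 8.89 with menthol, and fell by 0.31 (SE 0.07, limma adjusted p = 0.0164). The NHP2 call was lost with the mean of its probesets and on leaving out vehicle 2, vehicle 3 or menthol 2 (up to 0.0783). DKC1, the pseudouridine synthase, changed by -0.04 ± 0.07 and GAR1 by 0.05 ± 0.07. NOP10 was at 9.35, 9.34 and 9.40 with vehicle and 9.96, 9.54 and 9.46 with menthol, a change of 0.29 ± 0.13 (limma adjusted p = 0.125) without overlap, and of 0.13 without menthol replicate 1.

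Of 19 genes of H/ACA assembly, maturation and transport, 8 fell and 5 rose, or 42.1% and 26.3%, against 14.5% and 14.6% of all genes. Of the list 11 lay in the brightest quartile, where 26.9% of genes fell and 17.2% rose. Only 2 rose on leaving out any 1 vehicle array or menthol replicate 2, 3 on leaving out menthol replicate 3, and 2 with equal array medians or the replicate block. RUVBL2, an ATPase of the complex that assembles the particle, fell by 0.67 (SE 0.06, limma adjusted p = 0.00028). Its partner RUVBL1, chosen after its values were seen, fell by 0.33 (SE 0.06, limma adjusted p = 0.0080). TCOF1, a nucleolar protein with roles in ribosomal DNA transcription, fell by 0.60 (SE 0.08, limma adjusted p = 0.0012). NAF1, the factor that GAR1 replaces as the particle matures, fell by 0.52 (SE 0.10, limma adjusted p = 0.0075). TOE1, a nuclease that trims the ends of small nuclear RNAs, rose by 0.57 ± 0.07 (limma adjusted p = 0.00092).

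Of 13 measured genes of the Cajal body and small Cajal body RNA handling, 5 fell and 1 rose, or 38.5% and 7.69%, against 14.5% and 14.6% of all genes. Of the list 7 lay in the third quartile and 5 in the brightest, where 20.2% and 26.9% of genes fell. WRAP53, which binds the localisation box of small Cajal body RNAs, was at 7.26, 7.24 and 7.31 with vehicle and 6.86, 6.96 and 6.99 with menthol. It fell by 0.33 (SE 0.06, limma adjusted p = 0.0067), with all menthol arrays below all vehicle arrays. GEMIN2 and GEMIN4, of the complex that assembles spliceosomal particles, fell by 0.44 (limma adjusted p = 0.0040) and 0.34 (limma adjusted p = 0.0038). USPL1, a Cajal body protein, fell by 0.35 (limma adjusted p = 0.0063). The gene that rose was DDX20, chosen after its values were seen, at 0.31 ± 0.07 (limma adjusted p = 0.0152). It was lost without vehicle replicate 1 (0.0543), and 2 genes of the list rose without menthol replicate 1. Coilin (COIL) changed by -0.02 ± 0.06, also chosen after its values were seen.

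The telomerase RNA TERC carries an H/ACA domain and shares the core proteins. It was at 7.68, 7.73 and 7.93 with vehicle and 8.09, 7.66 and 7.68 with menthol, with overlapping groups and a change of 0.03 ± 0.13 (limma adjusted p = 0.887). TERT, its reverse transcriptase, changed by 0.01 ± 0.10 and NVL, which assists telomerase assembly, by 0.01 ± 0.08. Of 12 pseudouridine synthases that work without a guide RNA, 2 fell and 2 rose, 16.7% each, near the 14.5% and 14.6% of all genes. RPUSD3, a mitochondrial member, fell by 0.66 (SE 0.08, limma adjusted p = 0.00083) and TRUB1 by 0.28 (SE 0.06, limma adjusted p = 0.0132). PUS3 rose by 0.35 ± 0.10 (limma adjusted p = 0.0363) and PUS1 by 0.23 ± 0.07 (limma adjusted p = 0.0390). The PUS1 call was lost on leaving out any 1 of the 6 arrays, and the PUS3 call on leaving out vehicle 1, vehicle 3, menthol 2 or menthol 3. The PUS1 call was also lost with equal array medians and with the replicate block. Of 4 listed core proteins of the C/D particle 2 were measured. The methyltransferase FBL fell by 0.74 (SE 0.07, limma adjusted p = 0.00031), and NOP58 changed by 0.14 ± 0.06 (limma adjusted p = 0.142), without overlap. NOP58 passed as higher under quantile and cyclic loess normalization and with the trended prior (limma adjusted p down to 0.0187).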

How the data were processed

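Total RNA (300 ng per array) was labelled for Affymetrix whole-transcript arrays, per the labels' protocols. The authors deposited linear intensity values, made with RMA per the submitters' processing notes, for 32321 probesets, and log2 was taken here. Intensities ranged from 1.57 to 14835, and array medians from 47.4 to 49.1. The number of arrays limits the precision. Of the probesets, 19158 had 1 symbol in the platform annotation, 1388 several and 11775 none; the probeset with the highest mean was used for each gene. limma 3.58.1 (R 4.3.3, lmFit and eBayes, group as the single term) was fitted over 18404 genes, two-sided, with Benjamini-Hochberg adjustment, and was tested on simulated data. Hosts came from the spans in the RefSeq gene table. Promoters and exact tests used Python 3.11.15 and scipy 1.17.1. The members and lists were chosen with earlier results of these data known. Named were all SCARNA, SNORA past the threshold, the 4 brightest SNORA, their hosts, core particle genes, and up to 4 genes per other list. Alternatives covered normalization, dim genes, probesets, prior, weights (statmod 1.5.0), block, threshold and each array.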

Additional observations from a re-analysis of the deposited data

How the results depend on the processing

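Over 16 alternatives, 11 of the 18 members past the threshold stayed past it under each one run for them that kept the 0.05 threshold: SCARNA1, SCARNA5, SCARNA6, SNORA23 and SNORA49 as higher, SNORA6, SNORA29, SNORA33, SNORA38, SNORA55 and SNORA62 as lower. SCARNA1 and SNORA33, in the dimmest quartile, were removed by the filter on dim genes and so had 15 alternatives. Of the 59 others, 23 passed under at least 1, and 0 of the called members changed sign. Leaving out 1 array at a time, 5 to 10 members rose and 6 to 14 fell; SNORA gave 2 to 6 and 6 to 13, SCARNA 3 to 5 and 0 to 2, hosts 1 to 3 and 15 to 22, particle and pathway genes 2 to 7 and 13 to 15, and all genes 1950 to 2402 and 1851 to 2472. The medians ranged from -0.07 to 0.03 (all members), -0.13 to -0.01 (SNORA) and 0.044 to 0.19 (SCARNA). At an adjusted p of 0.01, 5 members rose and 6 fell, 2 SNORA rose, 0 SCARNA fell, 0 hosts rose and 12 fell, 1 particle and pathway gene rose, while all genes higher numbered 1382 and all genes lower 1459. The SCARNA that fell numbered 2 with the trended prior, with array weights or with the replicate block. Hosts that rose numbered 6 under quantile or cyclic loess normalization and 5 with the trended prior. Particle and pathway genes that rose numbered 4 with equal array medians or the replicate block, in place of 8. The SCARNA median was 0.025 without dim genes and 0.19 with single probesets only. Whether arrays of the same replicate number were paired is not stated, and no consistent pairing was seen. Deviations correlated at 0.0065, -0.0072 and 0.091 over all genes and at -0.056, -0.0602 and 0.289 over the members. With the replicate block 17 of 18 member calls remained among 19. Pair 3 alone correlated best with its own number. The cause of these shifts was not tested, and the dim signal and the small number of arrays limit what single members show.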
